A study of Rattus norvegicus with 13 samples.

Results

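Expression of the Wnt pathway was compared in rat mammary epithelial cells (MECs) at an age inside the window of susceptibility (WOS) and at a later age. The WOS is the period of life in which an exposure raises the risk of mammary cancer most. The genes described are the 47 of 14790 in the table whose symbols name a Wnt ligand, a protein of its secretion, a receptor or co-receptor, an R-spondin or its receptor, a secreted inhibitor, or a transducer of the signal inside the cell. The rule used symbols alone. RNA-seq libraries came from Wistar-Furth rats, a strain susceptible to mammary cancer, 6 aged 6 weeks (within WOS) and 7 aged 10 weeks (outside WOS), with 1 library for each rat. No treatment is named for either age, and the abdominal and inguinal glands of both ages were digested with collagenase and filtered to keep ductal fragments. By the study's methods such fragments also hold stromal fibroblasts and immune cells, so each value is an average over a mixture of cells.

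Wnt proteins are secreted lipid-modified ligands that bind Frizzled receptors and the co-receptors Lrp5 and Lrp6. In the absence of a ligand a complex of Axin, Apc and kinases marks beta-catenin for destruction. Once the receptors are engaged, Dishevelled proteins are recruited, beta-catenin accumulates, and it activates target genes together with TCF/LEF factors. Other Wnt ligands act through Ror receptors and planar polarity proteins without beta-catenin. In the mammary gland Wnt signals are known for bud formation in the embryo, for branching of the ducts and for maintenance of basal stem cells, and Wnt4 acts downstream of progesterone.

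The values look like RSEM counts that were scaled with a factor for each library and rounded, and the factor could not be recovered. They are called normalized counts here. Their totals ran from 13261906 to 15659533 per rat. In 7 rats some whole numbers between 1 and 30 did not occur, and in 2 of these rats the smallest value above 0 was 2, so small counts are coarse. All 14 luminal and all 10 basal epithelial markers were in the table, and none of them was at 0 in any rat. After removal of the mean of each age, the main component of what remained (28.3% of its variance) set 5 rats (2 at 6 weeks, 3 at 10 weeks) apart from the other 8. These are the smaller and the larger set of rats below. They were split on the same values, so p-values within a set can be too small.

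Of the 47 genes, 9 were differentially expressed (DE) at an adjusted p under 0.05 by limma on log2(normalized count + 1), adjusted after Benjamini-Hochberg over all 14790 genes. This is 19.1% of the pathway genes, against 16.1% of all genes tested, a share near that of the whole table. Expression was higher within WOS for 5 genes (*Sfrp4*, *Sfrp2*, *Wnt2*, *Wnt7b* and *Fzd4*, with 8.71% of all genes called in this direction) and higher outside WOS for 4 (*Lgr5*, *Wnt5b*, *Sfrp1* and *Dkk4*, with 7.39% of all genes). The median log2 fold change, 6 weeks over 10 weeks, was -0.062 over the pathway genes and 0.028 over all genes. In 4 pathway genes the ages did not overlap (6.07% of all genes behaved so). These were *Sfrp4*, *Sfrp2* and *Wnt2*, higher within WOS (3.29% of all genes), and *Sfrp1*, higher outside WOS (2.78%). By role, DE genes were 4 of 8 secreted inhibitors, 3 of 9 ligands, 1 of 5 R-spondins and Lgr receptors, 1 of 11 receptors, 0 of 7 cytoplasmic transducers, 0 of 4 TCF/LEF factors, 0 of 2 genes of ligand secretion and 0 of 1 receptor ubiquitin ligase. In the roles without a DE gene, 1 cytoplasmic transducer (*Dvl3*) and 1 gene of ligand secretion (*Wls*) had an unadjusted p under 0.05 in limma.

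**Figure D1:**
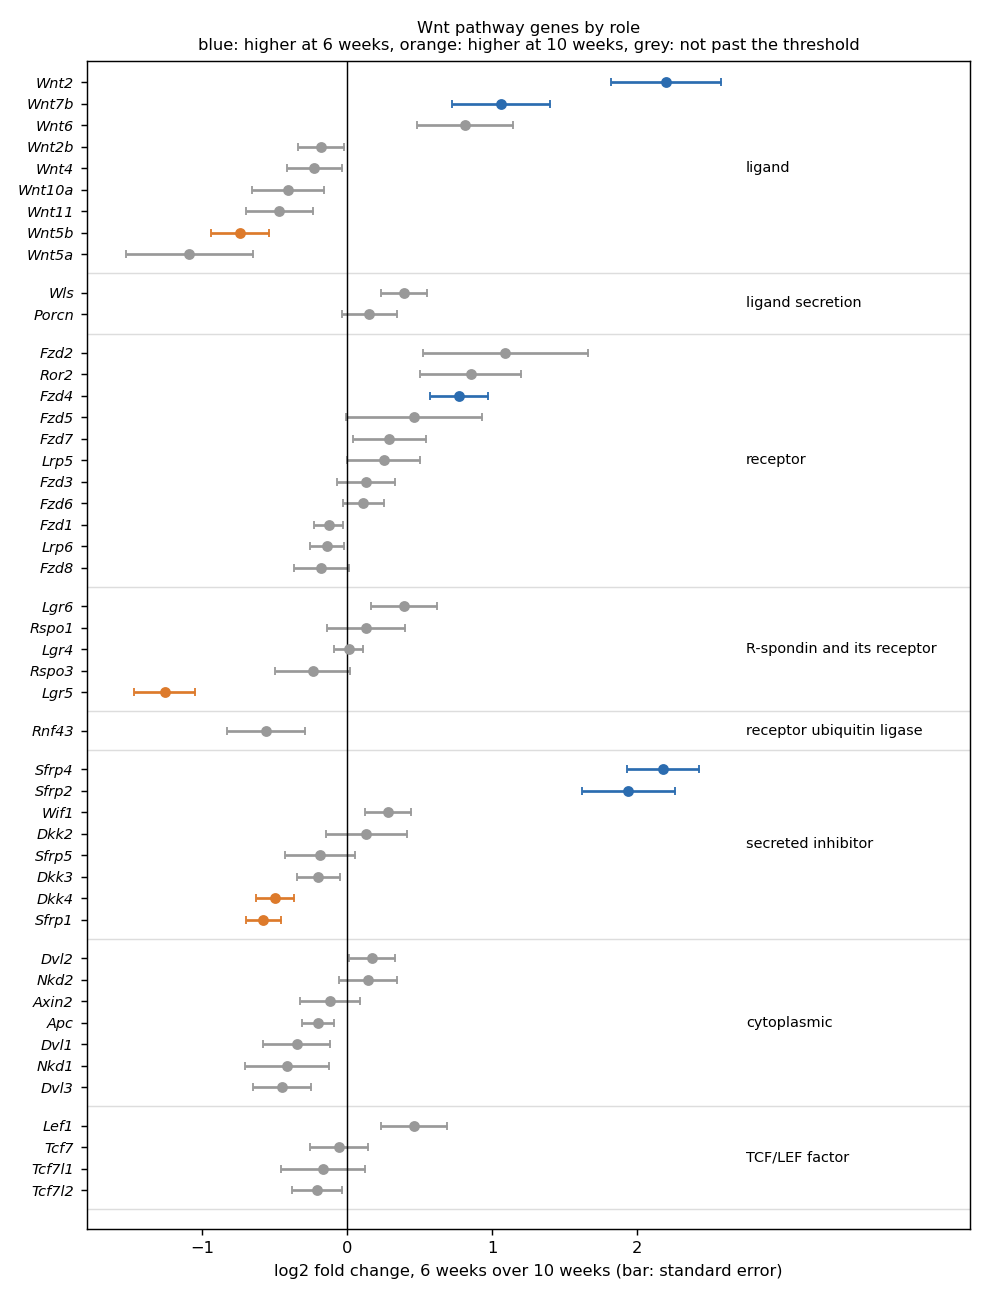
Log2 fold change of each of the 47 Wnt pathway genes (x axis, 6 weeks over 10 weeks) with its standard error from limma, grouped by role. Blue points are the 5 DE genes higher within WOS, orange points the 4 higher outside WOS, and grey points the 38 that did not pass the threshold. The largest values are 2.20 for *Wnt2* and 2.18 for *Sfrp4*, and the lowest is -1.26 for *Lgr5*.

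Markers of fibroblasts moved with the age as well. Of 10 such markers 9 were in the table and none was at 0 in any rat. Of the 9, 6 were DE (66.7%, against 16.1% of all genes), all higher within WOS (*Col1a1*, *Col3a1*, *Lum*, *Postn*, *Fap* and *Pdgfrb*). The other 3 did not pass the threshold, with log2 fold changes of 0.57 for *Dcn* (adjusted p = 0.197), 0.13 for *Pdgfra* (adjusted p = 0.780) and -0.24 for *Fbln1* (adjusted p = 0.518). The summed normalized count of the 9 was 135103 to 268032 within WOS (median 252034.5) and 24676 to 70665 outside WOS (median 60997). The score, the mean of log2(normalized count + 1) over the 9 genes, was 11.68 to 12.62 within WOS and 9.98 to 11.34 outside WOS, without overlap. In such bulk samples fewer cells of a type and less RNA per cell cannot be told apart.

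Secreted inhibitors moved in both directions. The Sfrp proteins carry a Frizzled-like cysteine-rich domain and bind Wnt ligands outside the cell. *Sfrp4* (ENSRNOG00000054957) had 116 to 247 normalized counts within WOS (median 193) and 26 to 61 outside WOS (median 33). Every rat within WOS exceeded every rat outside WOS. This was a log2 fold change of 2.18 (standard error, SE, 0.25, adjusted p = 0.000206 by limma, 6 of 6 rats above all 10-week rats), a 4.54-fold higher level within WOS on this scale. *Sfrp2* (ENSRNOG00000009465) had 150 to 642 normalized counts within WOS (median 281.5) and 35 to 105 outside WOS (median 73). The ages again did not overlap, and rat 86 with 642 was the highest at 6 weeks. Its log2 fold change was 1.94 (SE 0.32, adjusted p = 0.00181 by limma), or 3.85-fold, and 1.71 to 2.13 over the 13 fits that each left out 1 rat.

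*Sfrp1*, of the same family, was higher outside WOS. *Sfrp1* (ENSRNOG00000017783) had 497 to 681 normalized counts within WOS (median 577.5) and 745 to 1043 outside WOS (median 892). All 6 rats within WOS had less than any of the 7 outside WOS. The log2 fold change was -0.58 (SE 0.12, adjusted p = 0.00595 by limma), a much smaller change than those of *Sfrp2* and *Sfrp4*. *Dkk4* (ENSRNOG00000019267), which belongs to a family of inhibitors that bind Lrp5 and Lrp6, had 105 to 154 normalized counts within WOS (median 126.5) and 146 to 233 outside WOS (median 181). Here 5 of the 6 rats within WOS had less than every rat outside WOS, and rat 86 with 154 was the exception. The log2 fold change was -0.50 (SE 0.13, adjusted p = 0.0206 by limma). The other inhibitors, *Dkk2*, *Dkk3*, *Sfrp5* and *Wif1*, had log2 fold changes from -0.20 to 0.28 and did not pass the threshold. In exact permutation tests over the 1716 ways to choose 6 of 13 rats (two-sided), *Sfrp4*, *Sfrp2* and *Sfrp1* each reached p = 0.000583, the smallest these tests can give, as did *Wnt2*, and the other 5 DE genes had p of at most 0.0163. These p-values are unadjusted and concern genes already called on the same values. Of the pathway genes that were not DE, 4 also had p under 0.05 in the permutation test.

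**Figure D2:**
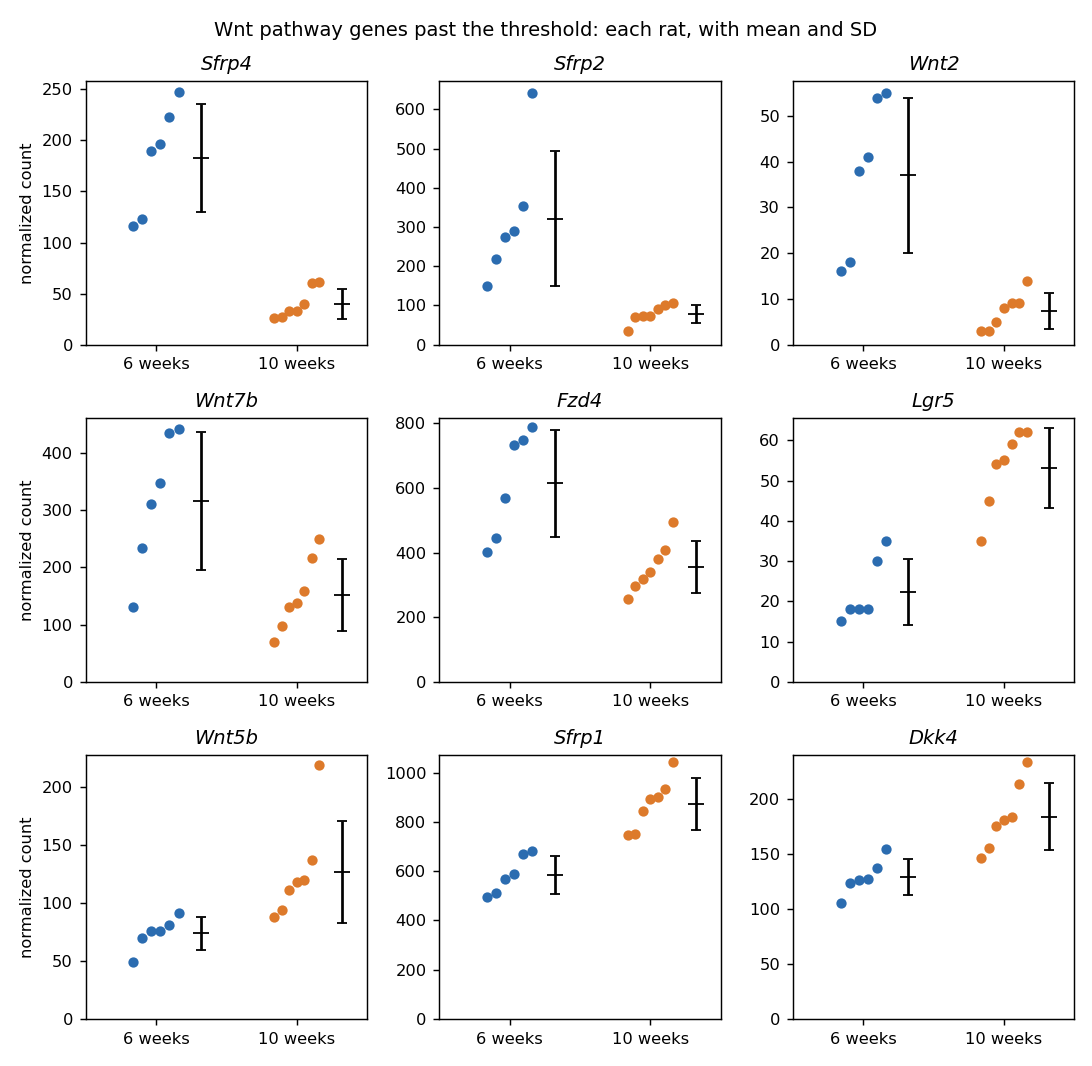
Normalized count (y axis, from 0) in each rat for the 9 DE Wnt pathway genes at 6 weeks (blue, n = 6) and 10 weeks (orange, n = 7), points ordered by value, with the mean and SD beside them. *Sfrp4*, *Sfrp2*, *Wnt2* and *Sfrp1* show no overlap between the ages, and *Wnt7b* overlaps, with the lowest 6-week rat at 130 and the highest 10-week rat at 249.

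Of the 9 ligands, 3 were DE. *Wnt2* (ENSRNOG00000051905), a ligand of the beta-catenin branch, had 16 to 55 normalized counts within WOS (median 39.5) and 3 to 14 outside WOS (median 8). All 6 rats at 6 weeks were above all rats at 10 weeks, at counts that are low in both ages. The log2 fold change was 2.20 (SE 0.38, adjusted p = 0.00254 by limma), or 4.59-fold. *Wnt7b* (ENSRNOG00000015750), an epithelial ligand, had 130 to 442 normalized counts within WOS (median 329) and 70 to 249 outside WOS (median 138). Of the 6-week rats, 4 lay above all 10-week rats, while rat 86 with 130 lay below the 10-week median. Its log2 fold change was 1.06 (SE 0.34, adjusted p = 0.0478 by limma), close to the threshold. *Wnt7b* was DE in the fits without rat 83, 85 or 86 but in none of the other 10 fits that each left out 1 rat (adjusted p from 0.0156 to 0.110 over the 13). Nor was it DE with library size scaling (adjusted p = 0.0583), with a pseudocount of 0.1 (adjusted p = 0.0517) or in the larger set of rats alone (log2 fold change 0.90, adjusted p = 0.133).

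*Wnt5b* (ENSRNOG00000008168), a ligand close to Wnt5a in sequence, had 49 to 91 normalized counts within WOS (median 76) and 88 to 219 outside WOS (median 118). Of the 6-week rats, 5 were below all 10-week rats, and rat 83 with 219 was far above the other 10-week rats. The log2 fold change was -0.74 (SE 0.20, adjusted p = 0.0291 by limma). The call was lost without rat 70, 72, 74, 84 or 86 (adjusted p up to 0.0592) and with library size scaling (adjusted p = 0.0605), and it held without rat 83 (log2 fold change -0.59, adjusted p = 0.0300).

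*Wnt5a*, known as a ligand of Ror2 that limits ductal growth, had 74 to 212 normalized counts within WOS (median 118) and 51 to 412 outside WOS (median 297). The highest 6-week rat stood at 212 and the other 10-week rats at 265 or more, and only rat 81 with 51 broke this order at 10 weeks. With all rats the log2 fold change of -1.09 (SE 0.44, adjusted p = 0.108 by limma) did not pass the threshold. Without rat 81 it was -1.47 (adjusted p = 0.00199), and in the larger set of rats, without rat 81, it was -1.70 (adjusted p = 0.0116). In the smaller set, with rat 81, it was -0.19 (adjusted p = 0.938), and with the fibroblast score as a term it was -0.47 (adjusted p = 0.907). *Wnt6* had 9 to 27 normalized counts within WOS (median 14.5) and 3 to 19 outside WOS (median 8). Its log2 fold change was 0.81 (SE 0.33, adjusted p = 0.107 by limma), and 1.01 without rat 78 (adjusted p = 0.0386), the highest rat at 10 weeks.

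*Wnt4*, the ligand linked to progesterone, did not pass the threshold. It had 152 to 306 normalized counts within WOS (median 201) and 178 to 308 outside WOS (median 245), with a log2 fold change of -0.23 (SE 0.19, adjusted p = 0.430 by limma). The ranges of the ages overlapped almost fully. *Wnt11*, a ligand of the branch without beta-catenin, had 64 to 192 normalized counts within WOS (median 129.5) and 138 to 215 outside WOS (median 151), with a log2 fold change of -0.47 (adjusted p = 0.177). *Wnt10a*, a ligand of the beta-catenin branch, had 14 to 34 within WOS (median 24) and 17 to 42 outside WOS (median 33), with a log2 fold change of -0.41 (adjusted p = 0.272). *Wnt2b*, the remaining ligand, had a log2 fold change of -0.18. *Wnt10b* was not analysed here. The genes that ligands need to leave the cell were *Wls*, a carrier with a log2 fold change of 0.39 (adjusted p = 0.121), and *Porcn*, the enzyme that attaches the lipid, with 0.15 (adjusted p = 0.621).

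Among 11 receptors and co-receptors, *Fzd4* was DE. *Fzd4* (ENSRNOG00000016848), a Frizzled that is also the receptor of norrin in vessels, had 402 to 789 normalized counts within WOS (median 650.5) and 255 to 495 outside WOS (median 341). All 6 rats within WOS exceeded the 10-week median, and 4 exceeded every 10-week rat. This gave a log2 fold change of 0.77 (SE 0.20, adjusted p = 0.0215 by limma), and *Fzd4* stayed DE whichever of the 13 rats was left out. It was 0.40 (adjusted p = 0.209) in the larger and 1.36 (adjusted p = 0.168) in the smaller set of rats, and the difference between the sets was not tested. The endothelial marker score, the mean of log2(normalized count + 1) over 7 genes, was 9.67 to 10.34 within WOS and 9.56 to 10.23 outside WOS, and 0 of the 7 genes were DE. Of the 7, 6 had a log2 fold change above 0 (median of the 7 0.27), and 1 had an unadjusted p under 0.05 by limma. Whether endothelial cells had a part in the *Fzd4* difference was not tested.

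The co-receptors *Lrp5* and *Lrp6*, which bind Wnt together with a Frizzled, did not pass the threshold. *Lrp5* had 412 to 1047 normalized counts within WOS (median 805) and 452 to 1023 outside WOS (median 573), with a log2 fold change of 0.25 (SE 0.25, adjusted p = 0.530 by limma). *Lrp6* had 2456 to 3199 within WOS (median 2748) and 2322 to 3473 outside WOS (median 3109), with a log2 fold change of -0.14 (SE 0.12, adjusted p = 0.447). Both ranges overlapped widely between the ages. *Ror2*, the receptor of the planar polarity branch, had a log2 fold change of 0.85 with an unadjusted p under 0.05 and an adjusted p of 0.118. The other 7 Frizzled genes had log2 fold changes from -0.18 to 1.09. The highest of these, *Fzd2*, had 0 normalized counts in rat 74 and at most 25 in any rat. *Fzd8* shares all of its 13 values with another record of the table, LOC100909849, so its level cannot be assigned to either.

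R-spondins strengthen Wnt signals by binding Lgr receptors, which keeps the ubiquitin ligases Rnf43 and Znrf3 from removing Frizzleds. *Lgr5* (ENSRNOG00000004221), a Wnt target that marks stem cells in several epithelia and a part of the mammary basal cells, had 15 to 35 normalized counts within WOS (median 18) and 35 to 62 outside WOS (median 55). The ages met at 35, the value of rat 86 at 6 weeks and of rat 81 at 10 weeks, and the other 5 rats within WOS had less than every 10-week rat. The log2 fold change was -1.26 (SE 0.21, adjusted p = 0.00183 by limma), so the level within WOS was 0.418 of that outside WOS. *Lgr5* was DE whichever of the 13 rats was left out, with values from -1.40 to -1.16.

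The related receptor *Lgr4* had 798 to 1009 normalized counts within WOS (median 878.5) and 743 to 1025 outside WOS (median 926). Its log2 fold change was 0.01 (SE 0.10, adjusted p = 0.936 by limma), and its sign turned with median-ratio scaling (-0.01). *Rspo1*, an R-spondin of the mammary gland, had 9 to 21 normalized counts within WOS (median 14.5) and 8 to 31 outside WOS (median 11), with a log2 fold change of 0.13 (adjusted p = 0.774). *Rspo3* had -0.24 and *Lgr6* 0.39, and neither passed the threshold. *Rnf43* had a log2 fold change of -0.56 (adjusted p = 0.181).

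Inside the cell, none of the 11 transducers and TCF/LEF factors was DE. *Axin2*, a brake on the pathway that beta-catenin itself induces and that is widely read as its output, had 88 to 184 normalized counts within WOS (median 102.5) and 81 to 160 outside WOS (median 135). The ranges overlapped, and the log2 fold change was -0.12 (SE 0.21, adjusted p = 0.733 by limma). *Lef1*, which binds DNA for beta-catenin, had 17 to 33 normalized counts within WOS (median 24) and 11 to 31 outside WOS (median 18), with a log2 fold change of 0.46 (SE 0.23, adjusted p = 0.188). *Tcf7* had 29 to 67 within WOS (median 41) and 32 to 58 outside WOS (median 45), with a log2 fold change of -0.06 (SE 0.20, adjusted p = 0.856). *Tcf7l1* had -0.17 and *Tcf7l2* -0.21. The Dishevelled genes *Dvl1*, *Dvl2* and *Dvl3* had -0.35, 0.17 and -0.45, *Apc* of the destruction complex had -0.20, and the Dishevelled antagonists *Nkd1* and *Nkd2* had -0.42 and 0.14.

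Promoter sequences of 34 of the 47 genes were at hand from RefSeq in the build GRCr8, which is not the build named for the counts. The 250 bases before the start site were searched on both strands (CTTTGA, or TCAAAG when read from the other strand), a core of the TCF/LEF binding motif. It occurred in 3 of these 34 genes (*Axin2*, *Fzd7* and *Nkd1*), or 8.82%, and in 13.9% of 33469 promoters of rat. The promoters of *Axin2* and *Nkd1*, feedback genes with a match and no call between the ages, are shown beside those of *Sfrp2* and *Wnt2*, DE genes without one. *Fzd4*, also DE, had no match either. No sequence was at hand for the DE genes *Sfrp4*, *Lgr5*, *Sfrp1*, *Dkk4*, *Wnt7b* and *Wnt5b*. The promoters shown were picked by match and call, and whether a match goes with a call was not tested. The sequences are read 5′ to 3′ toward the start site on the gene's strand, and capitals mark the motif. *Axin2* lies on the plus strand (chr10:94398535-94398784) with matches that begin 232 and 132 bases before the start, *Nkd1* on the minus strand (chr19:34722847-34723096) with a match 141 bases before it, *Sfrp2* on the plus strand (chr2:171387286-171387535) and *Wnt2* on the minus strand (chr4:47340285-47340534).
Axin2: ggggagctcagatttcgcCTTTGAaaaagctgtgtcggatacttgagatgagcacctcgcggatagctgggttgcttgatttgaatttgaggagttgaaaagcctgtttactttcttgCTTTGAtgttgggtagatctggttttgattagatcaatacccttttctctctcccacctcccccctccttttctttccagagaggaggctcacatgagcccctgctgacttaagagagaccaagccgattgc
Nkd1: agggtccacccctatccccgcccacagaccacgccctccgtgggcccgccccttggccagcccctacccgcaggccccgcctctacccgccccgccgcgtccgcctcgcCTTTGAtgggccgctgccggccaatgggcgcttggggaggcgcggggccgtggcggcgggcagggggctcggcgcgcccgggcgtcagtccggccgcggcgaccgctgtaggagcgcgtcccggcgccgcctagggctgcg
Sfrp2: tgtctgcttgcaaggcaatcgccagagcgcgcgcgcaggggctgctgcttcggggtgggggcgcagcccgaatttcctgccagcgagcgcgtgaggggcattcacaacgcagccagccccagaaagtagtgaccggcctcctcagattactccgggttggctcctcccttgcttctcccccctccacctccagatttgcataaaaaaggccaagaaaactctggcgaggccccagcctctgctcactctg
Wnt2: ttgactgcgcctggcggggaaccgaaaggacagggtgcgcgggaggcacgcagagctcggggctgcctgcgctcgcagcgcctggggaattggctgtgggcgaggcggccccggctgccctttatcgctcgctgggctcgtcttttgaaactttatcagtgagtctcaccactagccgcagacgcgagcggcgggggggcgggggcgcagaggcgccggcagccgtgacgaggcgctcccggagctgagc
A match describes letters and not binding, and the lack of a match concerns this window alone.

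From a list of 20 known targets of beta-catenin, 14 were in the table and 3 were DE (21.4%, against 16.1% of all genes), *Lgr5*, *Myc* and *Tnfrsf19*. *Myc*, a driver of growth with many other inducers, had 2731 to 3566 normalized counts within WOS (median 3077) and 4234 to 6359 outside WOS (median 5218). Without overlap of the ages, its log2 fold change was -0.73 (SE 0.12, adjusted p = 0.00172 by limma). *Tnfrsf19*, a receptor of the TNF family, had 180 to 311 normalized counts within WOS (median 230) and 68 to 141 outside WOS (median 132). It moved the other way without overlap, with a log2 fold change of 1.02 (SE 0.19, adjusted p = 0.00378). The other 11 targets, *Axin2*, *Nkd1*, *Lef1*, *Tcf7* and *Rnf43* among them, did not pass the threshold, and the median log2 fold change of the 14 was 0.037.

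Of 59 further records of the pathway, such as kinases, cofactors, extracellular modulators and planar polarity genes, 10 were DE (16.9%, against 16.1% of all genes), 8 higher within WOS and 2 higher outside WOS. Their median log2 fold change was 0.069. *Cthrc1*, a secreted protein that favours Wnt binding to Frizzled and Ror2, had 257 to 613 normalized counts within WOS (median 367) and 48 to 142 outside WOS (median 95), with a log2 fold change of 1.98 (adjusted p = 0.000387 by limma). *Gpc3*, a cell surface proteoglycan that binds Wnt, had 507 to 900 within WOS (median 604) and 148 to 321 outside WOS (median 204), with a log2 fold change of 1.58 (adjusted p = 0.000468). Neither gene overlapped between the ages. *Sostdc1*, a secreted inhibitor of Wnt and BMP, had a log2 fold change of 1.12 (adjusted p = 0.00285) without overlap.

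Of 14 genes listed under planar polarity 5 were DE (35.7%, against 16.1% of all genes), a difference that was not tested. The 5 count *Dact3*, an antagonist of Dishevelled and not a core component. *Vangl1*, a membrane core component, had 297 to 417 normalized counts within WOS (median 357) and 165 to 260 outside WOS (median 244), with a log2 fold change of 0.64 (adjusted p = 0.00616 by limma). *Prickle2*, its cytoplasmic partner, had 794 to 958 within WOS (median 881) and 1021 to 1231 outside WOS (median 1080), with a log2 fold change of -0.35 (adjusted p = 0.0188). Both were free of overlap between the ages, in opposite directions. *Dact3* had 0.92 (adjusted p = 0.00209) and *Celsr3*, a large cadherin, 1.55 (adjusted p = 0.00597) at 3 to 35 normalized counts. With library size scaling *Prickle2* was no longer DE. Of 17 records of the destruction complex, beta-catenin and kinases 1 was DE (*Csnk1g3*, looked up after its value was seen). Of the 17, 3 had an unadjusted p under 0.05 by limma. Their log2 fold changes ran from -0.44 to 3.28 (median -0.022), and the record with the highest was not DE. Of 16 nuclear cofactors 1 was DE. This was *Hbp1*, a repressor of TCF factors, with 0.54 (adjusted p = 0.0157).

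The fibroblast marker score was set beside the 3 genes of largest fold change rat by rat. Among 6-week rats the score was lowest in rat 71, with 150 normalized counts of *Sfrp2*, 16 of *Wnt2* and 123 of *Sfrp4*, and highest in rat 86, with 642, 41 and 196. The first 2 of these were the lowest of that age and 642 was the highest, but *Sfrp4* was lowest in rat 84 (116), and both *Sfrp4* (247) and *Wnt2* (55) were highest in rat 75. Among 10-week rats the score was lowest in rat 74, with 35 of *Sfrp2*, 3 of *Wnt2* and 33 of *Sfrp4*, and highest in rat 85, with 91, 9 and 60. Rat 85 was highest for none of the 3 genes, and rat 74 was lowest for *Sfrp2* and, together with rat 83, for *Wnt2*.

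With the fibroblast score as a term in the fit, the log2 fold change fell to 0.49 for *Sfrp2* (adjusted p = 0.797 by limma), 0.58 for *Wnt2* (adjusted p = 0.819) and 1.44 for *Sfrp4* (adjusted p = 0.265). It was -1.07 for *Lgr5* (adjusted p = 0.438), -0.54 for *Sfrp1* (adjusted p = 0.521), -0.27 for *Dkk4* (adjusted p = 0.817) and -0.38 for *Wnt5b* (adjusted p = 0.839). It was 0.59 for *Fzd4* (adjusted p = 0.741), and 1.60 for *Wnt7b* (adjusted p = 0.481), more than without the term. The signs were those without the term in all 9 genes. The score itself separates the ages, and 4 of 14790 genes were DE in this fit (1252 at an unadjusted p under 0.05). Luminal markers had a summed count of 33190 to 64435 within WOS and 47995 to 72506 outside WOS. Without the score as a term 2 of 14 were DE (14.3%, against 16.1% of all genes), *Epcam* and *Kit*, both higher outside WOS. *Epcam* was DE in 0 and *Kit* in 4 of 13 fits with a rat removed (adjusted p of *Epcam* from 0.0505 to 0.0808 by limma). Basal markers had 23898 to 36337 and 32309 to 42637, with 1 of 10 DE in each direction (20.0% in all), *Cdh3* in 13 of these 13 fits and *Cnn1* in 4. Adipocyte markers, 7 of 8 in the table, had a score of 6.54 to 7.30 within WOS and 5.65 to 6.37 outside WOS. Of the 7, 2 were DE (28.6%), both higher within WOS. These were *Adipoq* (20 to 56 normalized counts within WOS, 0 to 12 outside) and *Plin1* (4 to 19 and 0 to 6), both at small counts. The 5 markers that were not DE had log2 fold changes from -0.13 to 0.53. Of the other lists, 0 of 8 macrophage, 0 of 6 Schwann cell and 0 of 3 skeletal muscle markers were DE (1 of each list had an unadjusted p under 0.05 by limma), and 1 of 3 lymphocyte markers was DE, all 3 of them at 0 in some rat. The part of these cell types in the results was not tested.

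**Figure D3:**
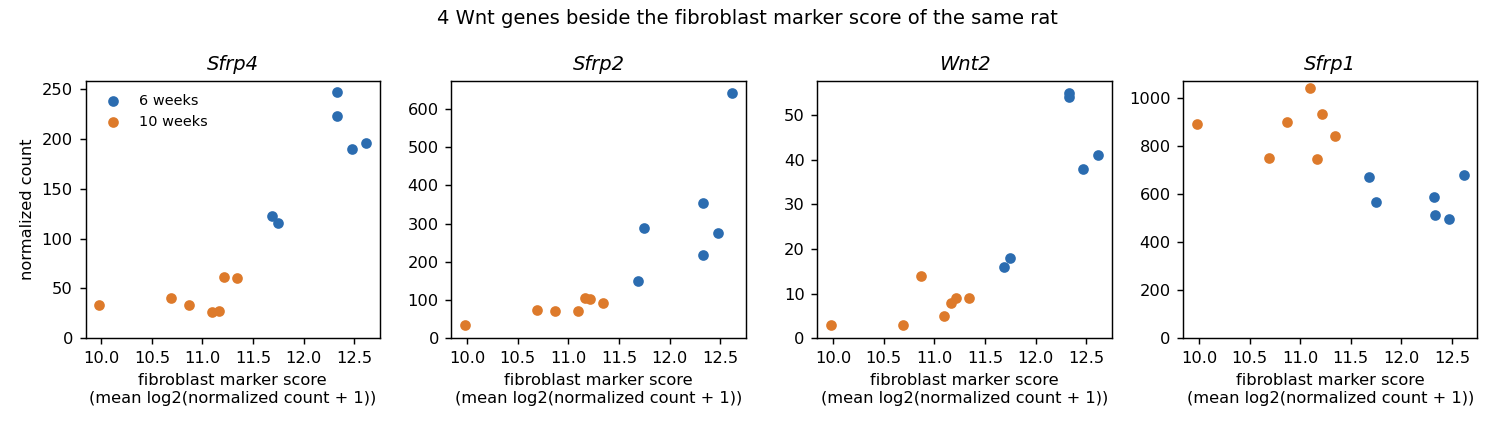
Normalized count of *Sfrp4*, *Sfrp2*, *Wnt2* and *Sfrp1* (y axes, from 0) against the fibroblast marker score of the same rat (x axis, mean of log2(normalized count + 1) over 9 genes) at 6 weeks (blue) and 10 weeks (orange). The ages are apart on both axes in all 4 panels, with scores of at least 11.68 within WOS and at most 11.34 outside WOS. *Sfrp1* is higher outside WOS, and the other 3 genes are higher within WOS. A relation to the score within an age was not tested.

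In the sets of rats taken alone, the 9 DE genes kept their signs. The split followed the main component left in these same values, which narrows the spread within a set. P-values there can thus be too small. In the larger set 13 of the 47 pathway genes were DE (27.7%, against 23.5% of all genes in that fit). These were 7 of the 9, all but *Fzd4* and *Wnt7b*, and 6 genes that were not DE with all rats. Of the 6, *Wnt5a* had log2 fold changes of -1.70 in the larger and -0.19 in the smaller set, *Ror2* was DE in the larger set (adjusted p = 0.00598 by limma) and had 0.56 in the smaller, and *Fzd5* had 0.94 (adjusted p = 0.0446) and 0.05. *Lgr6* had 0.63 (adjusted p = 0.0454) and 0.15. *Rspo1*, with 0.64 (adjusted p = 0.0489) and -0.68, and *Sfrp5*, with -0.59 (adjusted p = 0.0381) and 0.54, had opposite signs in the sets. In the smaller set, with 2 against 3 rats, limma called 0 genes of the whole table (1976 had an unadjusted p under 0.05), and 7 of the 47 pathway genes had an unadjusted p under 0.05. Values there ran from 1.24 for *Wnt7b* to 2.68 for *Sfrp4* among the genes higher within WOS, and from -1.58 for *Lgr5* to -0.56 for *Sfrp1* among those higher outside WOS.

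**Figure D4:**
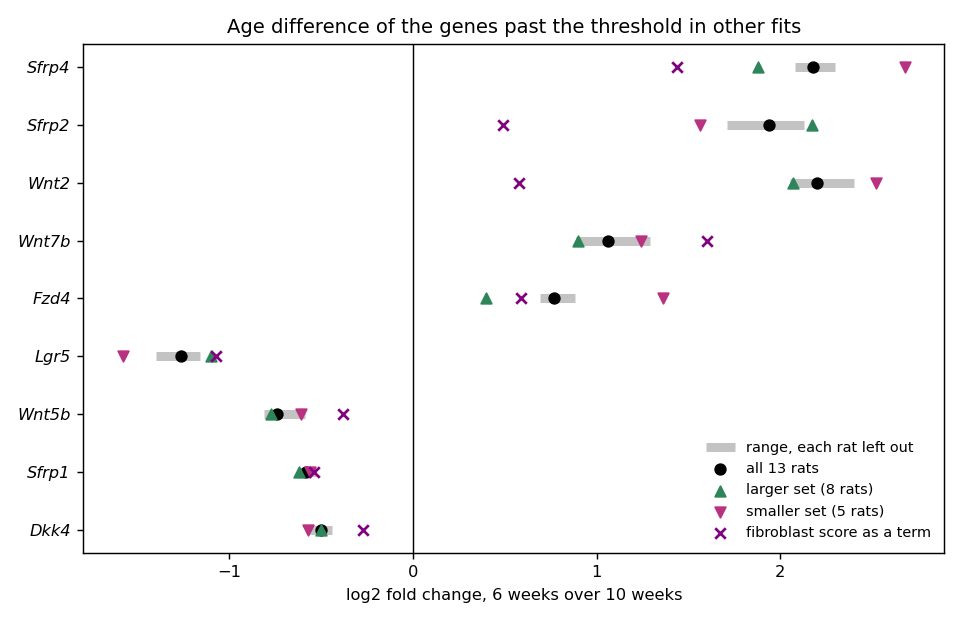
Log2 fold change (x axis, 6 weeks over 10 weeks) of the 9 DE Wnt pathway genes with all 13 rats (black), over the fits that each left out 1 rat (grey bar, range), in the larger set of 8 rats (green), in the smaller set of 5 rats (pink) and with the fibroblast score as a term (purple). No value crosses 0, and the purple crosses of *Sfrp2* (0.49) and *Wnt2* (0.58) stand farthest from the black points.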

How the data were processed

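RNA-seq of MECs from 6 rats at 6 weeks and 7 rats at 10 weeks was analysed. The authors estimated counts with RSEM 1.2.22, and the deposited values look like scaled, rounded counts and were treated as a score. The genome build is rn5 in the submitters' notes, and the annotation is not given in the sources used here. Columns of the authors' own edgeR comparison (fold changes, p-values and a cell location) were not used, and 0 columns of per-rat values were left out. The values were not taken as raw counts. For this reason limma 3.58.1 (R 4.3.3) was fitted to log2(value + 1) for all 14790 genes, without covariates. Each gene had a mean of at least 1. P-values are two-sided, and adjusted over all genes by Benjamini-Hochberg (threshold 0.05). The fold change understates low genes. Permutation tests were run in Python 3.11.15. Nothing says which rats share a litter or a day, so p-values measure the spread between these rats.

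The rule for the pathway genes uses symbols and no measured value, but it and the lists were chosen with earlier results of these data known. Named are all DE pathway genes, 17 symbols known from the mammary gland (16 in the table), and, of 66 further pathway and target records, the 10 DE ones of smallest p out of 12. Any other gene was picked once its values had been seen. Alternatives concerned scaling, pseudocount, minimum, prior variance, weights, added terms, rat sets and each rat left out. The sets come from the largest gap on the first residual component.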

Additional observations from a re-analysis of the deposited data

Results flagged for a closer look

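Within an age, 4 of 62 groups of rats held a value whose gap to the nearest other rat was above the 95% critical value of Dixon (0.568 for 7 rats), where chance alone gives about 5% of groups. All 4 were at 10 weeks. *Wnt5a* stood at 51 normalized counts in rat 81, against 265 or more in the other rats of that age. *Wnt5b* stood at 219 in rat 83, against at most 137. *Wnt6* stood at 19 in rat 78, against at most 9, and *Rspo1* at 31 in rat 78, against at most 15.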

How the results depend on the processing

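No paired analysis was possible because the ages share no rat number. The count of DE pathway genes was 9 with all rats and 7 to 10 when each rat was left out (4 to 5 higher within WOS, 3 to 5 higher outside WOS). In the fits with a rat left out this was 14.9% to 21.3% of the pathway genes, beside 9.54% to 18.1% of all genes. The count was 18 with sample quality weights (9 and 9), which is 38.3% beside 38.2% of all genes in that fit. The first residual component was taken with the mean of each age removed, so as a term it can change p-values but no fold change. With it added to the fit the count was 12, or 25.5% beside 23.8% of all genes. Of these 12, 8 were higher within WOS, as were 1875 of all 14790 genes. With the fibroblast score as a term it was 0 (4 at an unadjusted p under 0.05 by limma), as in the smaller set of rats (7 at an unadjusted p under 0.05). For the further pathway genes the weights, the fibroblast term and the smaller set gave 17 (6 higher outside WOS), 0 and 0 DE genes. With the last 2 of these, 8 and 9 had an unadjusted p under 0.05 by limma. For the target genes the fibroblast term and the smaller set gave 0 and 0, against 3 with all rats (3 and 4 at an unadjusted p under 0.05 by limma). Further pathway genes higher outside WOS numbered 1 with library size scaling, 4 in the larger set and 1 to 3 when each rat was left out, with 1 without rat 70, 72, 74, 80, 84 or 87. Target genes higher within WOS numbered 2 with the weights and 2 with the residual component. The residual component as a term could turn no sign. In the other alternatives run the 9 DE pathway genes kept their sign, while 16 of the 38 others turned in at least 1. Those among the genes named by the rule were *Lgr4* (-0.01 with median-ratio scaling, -0.05 in the larger set, down to -0.03 with a rat left out and 0.05 at most), *Tcf7* (0.03 with the fibroblast score, 0.20 in the smaller set, -0.19 to 0.05 with a rat left out), *Lrp6* (0.10 with the score, 0.05 in the smaller set), *Lef1* (-0.03 with the score), *Axin2* (0.21 in the smaller set) and *Rspo1* (-0.68 in the smaller set). The causes were not tested. Small counts limit *Lgr5*, *Wnt2*, *Wnt6*, *Wnt10a*, *Rspo1*, *Lef1*, *Fzd2* and *Celsr3*.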

Other observations

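At 10 weeks rat 81 had the lowest normalized count of all 7 rats for each of the 4 pathway genes called higher outside WOS, with 35 for *Lgr5*, 88 for *Wnt5b*, 146 for *Dkk4* and 745 for *Sfrp1*, and also for *Wnt5a* with 51. For the 5 genes called higher within WOS it was not at 1 end throughout, with the highest 10-week value for *Sfrp2* (105) and the lowest for *Fzd4* (255). At 6 weeks rat 86 had the highest value for 3 of the 4 genes higher outside WOS (*Lgr5*, *Dkk4* and *Sfrp1*), and the lowest for *Wnt5b* (49). In rat 86 the top record, AY172581.24, held 27.9% of the total, against 14.3% to 21.2% in the other rats. Among 6-week rats it also had the lowest luminal and basal marker scores and the highest fibroblast score. These patterns were noticed after the values were seen and were not tested.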
